A study of Mus musculus with 5 samples.

Results

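Lymphatic endothelial cells were sought in 3 single-cell libraries of the mouse penis and in 1 library each of the forelimb and the hindlimb. A cell was taken as a member when it held at least 1 UMI (a unique molecular identifier, which marks 1 captured mRNA) of Pecam1 or Cdh5, the endothelial adhesion genes, and at least 1 UMI of 2 or more of Prox1, Mmrn1, Flt4 and Reln. This gate took 639 of 69434 kept cells, 94, 96 and 103 in penis libraries 1, 2 and 3 and 182 and 164 in those of the forelimb and hindlimb. The comparison class was blood endothelial cells, which held 3 or more of Pecam1, Cdh5, Kdr, Emcn, Tie1 and Egfl7 and fewer than 2 of the lymphatic genes, and which numbered 1935 cells. The cells were chosen by the values of these 10 genes, so their levels are given below as a description, without a test.

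Lymphatic vessels drain fluid, lipid and leukocytes from tissue. Their endothelium arises from veins when the homeobox factor Prox1 is switched on, and it grows towards Vegfc, which signals through the receptor Flt4 (VEGFR3) and the co-receptor Nrp2. Initial lymphatics take up fluid and carry the hyaluronan receptor Lyve1 and the chemokine Ccl21a, which guides dendritic cells into the vessel, while collecting vessels acquire valves that need the forkhead factor Foxc2. Mmrn1 encodes the matrix glycoprotein multimerin 1, and Reln the secreted glycoprotein reelin.

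The penis libraries came from males at postnatal day 6, drawn from more than one litter, with the prepuce removed so that mostly the glans was left. The limb libraries came from male embryos at embryonic day 15. All 5 libraries carry the genotype label C57BL/6N, while the study's methods name C57BL/6J, and no mutant, reporter or treatment is labelled. One dissociation protocol was used for all tissues. The forelimb and hindlimb libraries were treated as 1 limb group of 2, and the labels do not say whether they shared embryos. Tissue and age therefore cannot be told apart in any difference between penis and limb, and p-values measure only the spread between these libraries.

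Kept cells numbered from 5720 to 25865 a library, with median depths from 8786.5 to 9902.5 UMIs in the penis and 4738 and 5454.5 UMIs in the limbs. Gated cells were deeper than the kept cells of their library, with medians of 11105, 12887, 11404, 13144 and 15865 UMIs in penis 1, 2 and 3, forelimb and hindlimb. Blood endothelial cells had medians of 9503, 9286, 8846.5, 6218.5 and 8089.5 UMIs in the same order. Libraries shared from 9 to 167 kept barcodes a pair, and doublets were not called.

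The gate held cells of unlike kinds. All 4 lymphatic genes were found in 7, 17 and 23 cells of the penis libraries, 39 of the forelimb and 34 of the hindlimb, 120 cells in all. Another 58 cells held 3 of the genes, and 461 cells held exactly 2. The pair also differed between tissues. Prox1 with Flt4 was the pair in 173 penis and 68 limb cells, whereas Prox1 with Reln was the pair in 10 and 96. Mmrn1 with Flt4 was found in 3 penis cells and 33 limb cells, and Prox1 with Mmrn1 in 34 and 16.

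**Figure D1:**
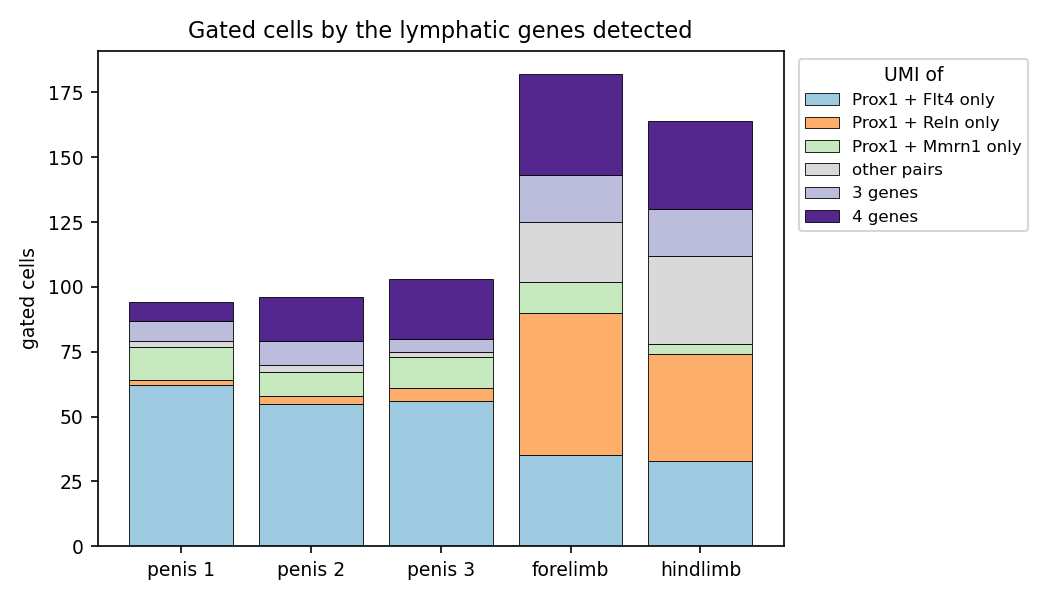
Number of gated cells (y axis) in each of the 5 libraries (x axis), stacked by which lymphatic genes had a UMI. Cells with all 4 genes (dark purple) numbered 7 to 39 a library, and the most frequent pair was Prox1 with Flt4 in the 3 penis libraries and Prox1 with Reln in both limb libraries.

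The label was checked against 4 lymphatic markers that the gate did not use. Ccl21a had a UMI in 100, 94.1, 100, 100 and 100% of the 4-gene cells of penis 1, 2 and 3, forelimb and hindlimb. In the cells with exactly 2 of the genes it had a UMI in 1.27, 0, 1.33, 4.80 and 0.893%, and in blood endothelial cells in 1.65, 0.658, 2.05, 1.52 and 1.25%. The 0 of 70 cells in penis 2 allows a share of up to 4.29%. Ccl21a had a UMI in up to 1.28% of leukocyte-marked cells, at median depths of 5688.5 to 7394 UMIs. Free RNA and doublets could not be told apart there. Most 2-gene cells thus held no Ccl21a, with a share above that of blood endothelium in the forelimb (6 of 125 cells), and nearly all 4-gene cells held it.

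Lyve1 was found in 73.9 to 97.4% of the 4-gene cells and in 0.893 to 10.0% of the 2-gene cells. The share of leukocyte-marked cells with Lyve1 ran from 0 to 3.88% in the penis and was 14.3 and 13.1% in the limbs. Pdpn, the membrane mucin podoplanin, was found in 58.8 to 85.7% of the 4-gene cells. Among 2-gene cells it was found in 1.43 to 6.67% of those of the penis and in 40.0 and 31.3% of those of the limbs, where 14 and 16.3% of cells with no endothelial gene also held it. Nrp2 separated the classes least, with 91.3 to 100% of 4-gene cells, 55.2 to 87.1% of 2-gene cells and 58.1 to 68.4% of blood endothelial cells.

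Among markers of blood vessels, Flt1, a VEGF receptor, ran the other way. It had a UMI in 11.8 to 28.6% of 4-gene cells in 85.3 to 92.4% of the 2-gene cells of the penis and in 42.4 and 42% of those of the limbs. Emcn, the sialomucin of capillaries and veins, helped to define the blood class and is given as a description only, with a UMI in 28.6 to 47.8% of 4-gene cells and in 82.7 to 93.7% of the penis 2-gene cells. By Ccl21a and Lyve1, which the gate did not use, the data bore out the lymphatic label for the 4-gene cells and went against it for most 2-gene cells, which are called 2-gene cells from here on. Pdpn went with Ccl21a and Lyve1 in the 2-gene cells of the penis but not in those of the limbs. The division into 2, 3 and 4 genes was made after these marker values were seen. Cells just outside the gate, with Pecam1 or Cdh5 and exactly 1 lymphatic gene, numbered 437, 416, 317, 1170 and 1027 and held Ccl21a in 0 to 2.52%.

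**Figure D2:**
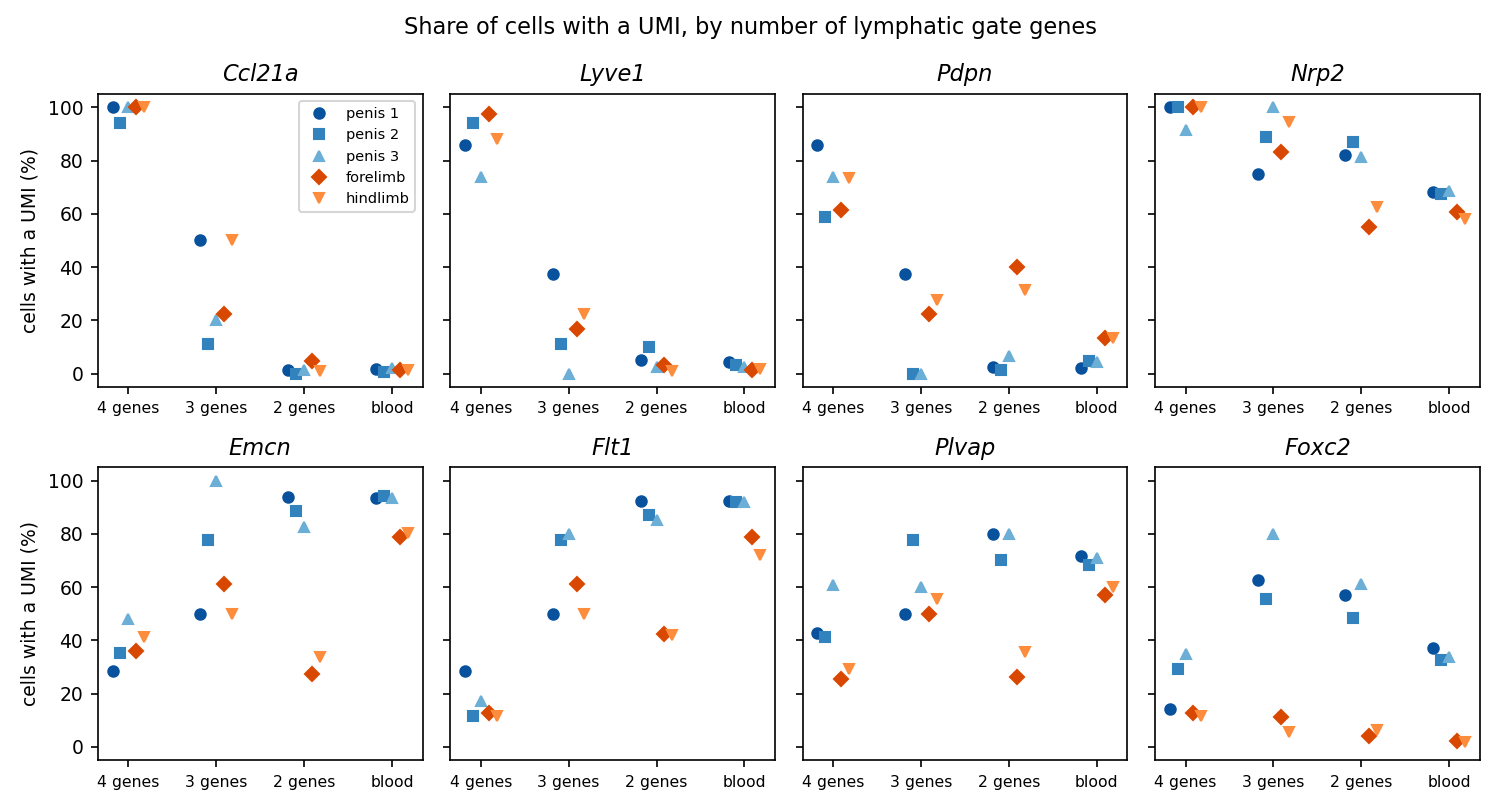
Share of cells with at least 1 UMI (y axis, percent) of 8 genes, 1 panel a gene, in gated cells with 4, 3 or 2 lymphatic genes and in blood endothelial cells (x axis), with 1 point a library. Ccl21a and Lyve1 were found in most 4-gene cells and in few 2-gene or blood endothelial cells, and Flt1 and Emcn in most 2-gene cells of the penis.

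The cells with 3 genes lay between. Ccl21a had a UMI in 50.0, 11.1, 20, 22.2 and 50.0% of them, with 5 to 18 such cells a library. The endothelial genes of the gate, as a description, were also uneven among 2-gene cells. Of these cells, 40 of 125 in the forelimb and 41 of 112 in the hindlimb held 3 or more of the 6 endothelial genes, against 74 of 79, 61 of 70 and 64 of 75 in the penis libraries. Markers of another cell type were present (2 or more UMIs of 2 or more markers of a type) in 65 forelimb and 41 hindlimb 2-gene cells, most often of muscle (30 and 15 cells) or of mural cells (24 and 17 cells). In the 2-gene cells of penis 1, 2 and 3 such markers were present in 3 of 79, 9 of 70 and 8 of 75. Of the limb cells with Prox1 and Reln alone, 9.09 and 2.44% held 3 endothelial genes. The same other-type markers were present in 1, 2 and 0 of the penis 4-gene cells and in 3 and 2 of those of the limbs.

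Ccl21a, Pdpn, Dtx1 and others such as Fgl2 were higher in summed 4-gene cells than in blood endothelial cells in all 5 libraries. The rule that named genes required this of Ccl21a, Dtx1 and Fgl2. The promoters of Ccl21a, Pdpn and Dtx1 are shown as examples. Each is the 250 bases before the gene's start, from RefSeq on GRCm38.p6, 5′ to 3′ on the gene's strand, and capitals mark matches on either strand to ACAAT (the core bound by SOX factors), TAAACA (forkhead factors) or GGTCA (part of the site of nuclear receptors such as Nr2f2). Of 32851 promoter windows of the same length, 27.7% held the first, 12% the second and 35.2% the third.
Ccl21a (chr4:42773992-42774241, minus strand): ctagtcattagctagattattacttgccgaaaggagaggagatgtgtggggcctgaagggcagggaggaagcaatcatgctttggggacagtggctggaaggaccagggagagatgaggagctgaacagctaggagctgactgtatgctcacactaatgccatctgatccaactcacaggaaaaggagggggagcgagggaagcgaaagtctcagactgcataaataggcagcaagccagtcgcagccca
Pdpn (chr4:143299565-143299814, minus strand): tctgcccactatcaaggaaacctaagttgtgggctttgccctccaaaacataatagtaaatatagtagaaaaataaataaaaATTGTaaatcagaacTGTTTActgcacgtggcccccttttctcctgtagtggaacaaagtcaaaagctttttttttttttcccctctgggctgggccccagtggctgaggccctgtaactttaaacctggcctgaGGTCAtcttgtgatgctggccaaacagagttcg
Dtx1 (chr5:120711670-120711919, minus strand): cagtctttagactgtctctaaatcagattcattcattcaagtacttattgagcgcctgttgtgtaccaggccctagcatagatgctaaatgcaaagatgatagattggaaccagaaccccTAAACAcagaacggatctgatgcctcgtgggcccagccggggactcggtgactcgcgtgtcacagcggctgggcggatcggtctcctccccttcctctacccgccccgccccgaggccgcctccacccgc
The Ccl21a window held none of the 3 sets of letters. The Pdpn window held 1 match to each, and that of Dtx1, an E3 ubiquitin ligase of the Notch pathway, held 1 match to the forkhead letters.

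In the mm10 annotation (GENCODE vM21) the windows of Ccl21a and Pdpn lie at the gene's start, while that of Dtx1 lies inside the gene's span, which starts further upstream there (chr5:120680202-120711927). Ccl21a (ENSMUSG00000094686) spans chr4:42772860-42773993, and Pdpn (ENSMUSG00000028583) spans chr4:143267431-143299564. Other Ccl21 copies in the annotation took few of the counts, with 4, 8, 13, 3 and 2 UMIs for Gm21541 in the 4-gene cells and 838, 1460, 2060, 2129 and 2029 for Ccl21a, so reads shared between copies could not be split with certainty.

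To ask what set the gated cells apart from blood endothelium, UMIs were summed per library over each class and compared within libraries with edgeR. A gene was called at an adjusted p under 0.01 and a change of 2-fold or more. Over the whole gate 60 of 12884 genes were higher (0.466%) and 23 were lower (0.179%). Over the 4-gene cells 322 of 11388 genes were higher (2.83%) and 505 were lower (4.43%). Over the 2-gene cells 1 of 12493 genes was higher (0.008%) and 2 were lower (0.016%), with 1488 genes at an unadjusted p under 0.05. The 4-gene cells, 7 to 39 a library, gave more calls than the whole gate. DESeq2 gave 342 higher and 476 lower genes for the 4-gene cells. The leading genes of the whole gate were Ccl21a (8.65 ± 0.34), Fgl2, Lyve1, Slc45a3, Scn3a, Apba2, Dtx1, Ptx3, Tc2n, Pld5, Sh3gl3 and Prkcz among the higher, and Fabp4 (-2.18), Rbp7, Ly6c1, Lama3, C1qtnf9, Cd38, Prnd, Mndal, Pcdh1, Tcf15, Notch4 and Apln among the lower.

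Levels are given from here on as CPM, the UMIs of a gene over the summed cells scaled to a common total of UMIs for each library and class, in the order penis 1, 2 and 3, forelimb and hindlimb. Ccl21a stood at 8494, 6502, 8307, 3452 and 2712 in 4-gene cells and at 1.82, 0.628, 2.35, 6.60 and 1.12 in blood endothelial cells. Lyve1 stood at 973, 935, 1153, 955 and 573 against 11.6, 6.91, 5.87, 6.09 and 5.58. Both genes were higher in the 4-gene cells of every library, with log2 differences of 11.18 ± 0.48 (SE) and 6.97 ± 0.23. These genes led to the split by gene number, so no test is given for them, nor for Nrp2 (2.34 ± 0.15) and Pdpn (3.16 ± 0.46).

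The gate genes themselves stood as follows in the 4-gene cells, as a description. Prox1 (chr1:190118035-190170714, minus strand) was at 1054, 1029, 1194, 618 and 641 against 79.1, 72.1, 77.5, 8.88 and 8.09 in blood endothelial cells. Mmrn1 was at 1449, 1260, 1674, 911 and 826 against 0.838 to 8.63. Flt4 was at 568, 419, 524, 368 and 481 against 17.6 to 42.1, and Reln at 1014, 748, 948, 746 and 851 against 0.294 to 5.66. Prox1 and Mmrn1 were thus higher in every penis library than in either limb library, and Flt4 and Reln overlapped between the tissues.

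Fgl2, Il7 and Ptx3 encode secreted proteins. Fgl2, a fibrinogen-like secreted protein, was at 1460, 1162, 2008, 229 and 218 in 4-gene cells and at 1.27 to 12 in blood endothelial cells (log2 difference 7.02 ± 0.19, edgeR adjusted p = 5.3e-10). Il7, the cytokine that keeps lymphocytes alive, was at 101, 66.8, 88.7, 17.8 and 12 and at 0 to 0.881 in blood endothelial cells (7.54 ± 0.52, edgeR adjusted p = 1.2e-06). Ptx3, a soluble pattern recognition protein, was at 227 to 285 against 3.52 to 9.77 (5.43 ± 0.22). Il7 and Fgl2 also split by tissue, with every penis library above both limb libraries, while Ptx3 did not.

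Other genes with large differences had varied roles. Scn3a, an alpha subunit of voltage-gated sodium channels, was at 73.5 to 213 in 4-gene cells and at 0.881 to 3.63 in blood endothelial cells, a log2 difference of 6.38 ± 0.38. Scn3b, a beta subunit, was at 111, 22.3, 32.3, 8.11 and 6.68 against 0.587 to 1.27 (4.85 ± 0.63, edgeR adjusted p = 0.00019). Apba2, an adaptor that binds the amyloid precursor protein, rose by 6.30 ± 0.38, Slc45a3, a solute carrier, by 6.65 ± 0.54, Dtx1 by 6.22 ± 0.57, Tc2n by 5.31 ± 0.24 and Pld5 by 5.27 ± 0.29. Each of these genes was higher in 5 of 5 libraries, which the naming rule required of all but Scn3b.

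**Figure D3:**
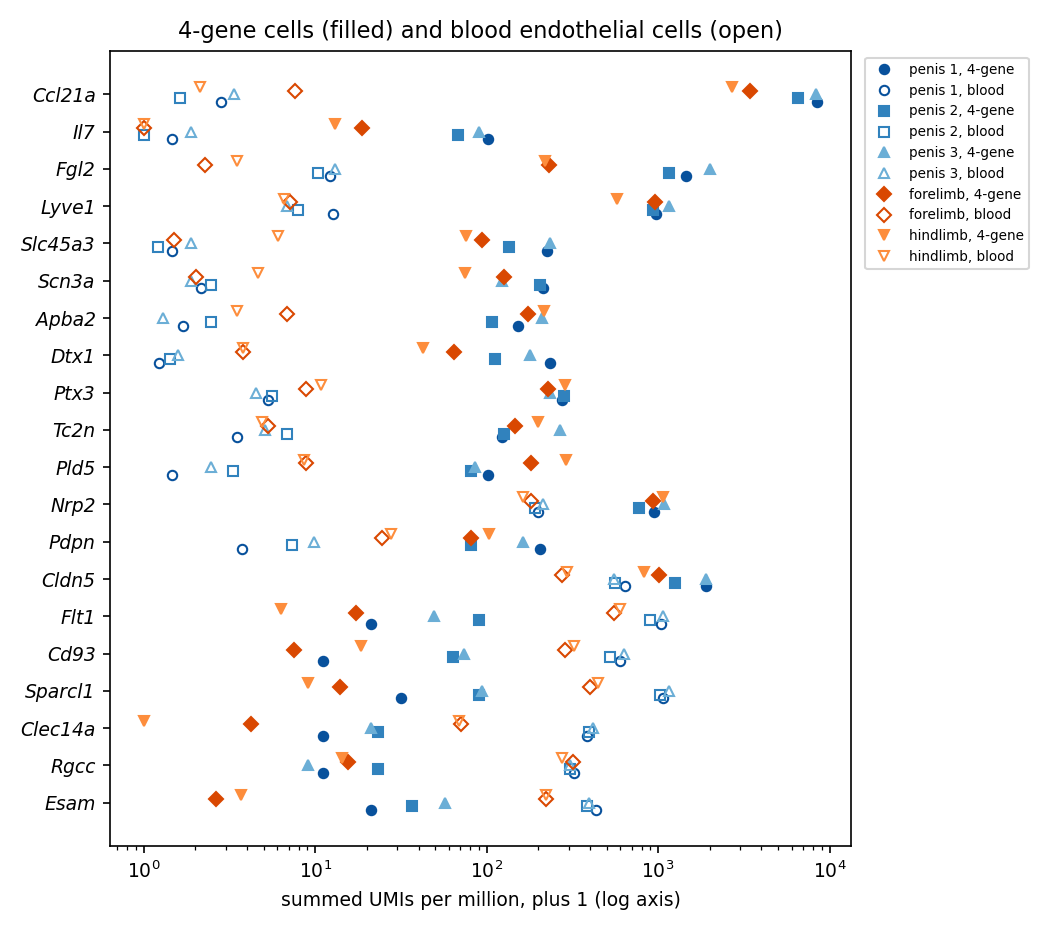
CPM plus 1 (x axis, log scale) of 20 genes (y axis) in 4-gene cells (filled) and blood endothelial cells (open), with 1 point a library. The points of the 2 classes did not overlap for the lymphatic genes at the top, nor, in the other direction, for the blood vessel genes at the bottom such as Flt1, Cd93 and Rgcc.

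The genes that were lower included those of blood capillaries and sprouting vessels. C1qtnf9, Klk8, Ly6a, Esm1 and Mndal had no UMI in any 4-gene cell, and against a floor of 3 UMIs over the group they were at least 17.6-fold, 15.2-fold, 21.7-fold, 14.3-fold and 17.8-fold lower than in blood endothelial cells. Esm1 is a proteoglycan of sprouting tip cells, and Ly6a is a surface protein of capillary and arterial endothelium. Aplnr, the apelin receptor, had 1 UMI in 4-gene cells and 134 to 171 CPM in blood endothelial cells, a ratio of 301 (95% counting interval 54.1 to 11909). Its ligand Apln had 2 UMIs (ratio 68.8, 19 to 568), and Prnd, the prion-like protein doppel, had 2 (ratio 164, 45.3 to 1354). Ly6c1, Vwa1 and Iigp1 had 1 UMI each and Fam167b had 2.

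Of 30 listed blood vessel genes, 28 were tested in the 4-gene comparison, 21 were lower and 1 was higher, with a median log2 difference of -2.11 beside -0.04 over all genes tested. Some of the lower ones, such as Ly6a, Esm1, Aplnr, Ly6c1 and Apln, passed the filter on low counts through the blood class alone. The count and the median of this list are therefore a description. Flt1 was at 20.3, 89.1, 48.4, 16.2 and 5.35 in 4-gene cells and at 1043, 897, 1073, 553 and 597 in blood endothelial cells, a fall of 4.78 ± 0.34 on the log2 scale. Clec14a, a surface lectin of angiogenic vessels, was at 0 to 22.3 against 68.1 to 414 and fell by 4.66 ± 0.29. Vwf, the clotting factor carrier, had 4 UMIs in all 4-gene cells. The gene that was higher was Cldn5, the tight junction claudin, at 1895, 1252, 1891, 1005 and 826 against 272 to 643 (1.57 ± 0.15, edgeR adjusted p = 1.6e-05).

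The list of 15 further lymphatic genes had 14 that were higher in 4-gene cells and none lower, with a median log2 difference of 3.40. It holds Ccl21a, Lyve1, Pdpn and Nrp2, and it was drawn up with earlier results of these data known, so it is not independent evidence. Maf, a transcription factor, was at 297 to 512 against 19.4 to 59.2. Sema3d, a guidance ligand, was at 211 to 334 against 13.2 to 28.7, and Stab1, a scavenger receptor, at 294 to 465 against 46.9 to 104. Cp, ceruloplasmin, was the gene not called. It was at 142, 49.0, 121, 6.49 and 4.01 in 4-gene cells and at 137, 129, 188, 2.54 and 1.67 in blood endothelial cells, so it followed the tissue in both classes.

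Of 16 listed transcription factors of lymphatic identity, all tested, 4 were higher and 1 was lower in 4-gene cells, beside 2.83 and 4.43% of all genes tested. Nr2f2, the venous factor that works with Prox1, was at 430 to 605 against 117 to 332 (1.28 ± 0.19, edgeR adjusted p = 0.00064), Tbx1 was higher by 2.60 ± 0.20, Meis2 by 3.02 ± 0.22 and Nfatc1, a valve factor, by 1.46 ± 0.15. Sox18, which turns on Prox1 in the embryonic vein, had a log2 difference of 0.74 ± 0.16 (edgeR adjusted p = 0.006), under the 2-fold limit. Foxc2 had -0.04 ± 0.44.

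Single genes of signals and receptors were called in both directions. Vegfc, the ligand of Flt4, was lower in 4-gene cells at 0 to 19.5 against 36.8 to 72.5. Angpt2, a ligand of the Tie receptors, was higher at 84.7 to 117 against 7.87 to 35.8 (2.32 ± 0.36), and Tek, the receptor that binds it, was lower by 1.36 ± 0.22. Of 14 tested genes of the Vegfc pathway 1 was higher and 2 were lower. Of 16 tested genes of the angiopoietin, sphingosine phosphate and adrenomedullin pathways 1 was higher and 1 was lower. Beside 2.83% higher and 4.43% lower of all genes tested, the calls in these 2 lists were few. Of 8 tested genes of the 10 in the Notch list, 3 were lower, Notch4, Jag2 and Nrarp, and none was higher, beside the same shares.

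Of 21 listed collecting vessel and valve genes, all tested, 5 were higher and 3 were lower, beside the same 2.83 and 4.43%. The connexin Gja1 rose by 1.92 ± 0.15, Celsr1, a planar polarity cadherin, by 2.11 ± 0.27 and the claudin Cldn11 by 2.19 ± 0.37. Of 23 listed genes of immune traffic 16 were tested, of which Ccl21a, Stab1, Il7, Mrc1 and Tnfrsf11a were higher, and Cxcl12 and Vcam1 were lower. Mrc1, the mannose receptor, was at 101 to 174 in 4-gene cells, and in blood endothelial cells at 1.05 to 2.05 in the penis and 17.5 and 37.1 in the limbs. Tnfrsf11a, the receptor RANK, was at 49.0 to 149 against 4.06 to 26.4.

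Matrix and lipid genes were lower where they were called over the 5 libraries, but not within the penis alone. There 3 matrix genes (Lama4, Fn1 and Timp3) were higher and 7 lower, and 2 lipid genes (Lpl and Abca1) were higher and 3 lower. Over the 5 libraries 9 of 19 listed basement membrane and matrix genes were lower and none was higher. The lower ones included the collagen IV chain Col4a1 (a fall of 1.24 ± 0.16) and Sparcl1 (4.37 ± 0.28). Of 15 lipid genes 14 were tested and 4 were lower. Over all genes tested 4.43% were lower and 2.83% higher. Fabp4, the fatty acid binding protein of capillaries, was at 0, 0, 4.03, 68.1 and 76.2 against 136 to 985. Of 23 listed genes of cell division, none was called in either direction by edgeR, and the median log2 difference was 0.21. Haemoglobin RNA was uneven, with Hbb-bs at 18038 in the 4-gene cells of penis 2 and at 101 to 691 in those of the other libraries. The 7 listed fibroblast markers summed to 487, 4124, 3666, 1112 and 621 in 4-gene cells and to 2503 to 5234 in blood endothelial cells, and their part in the lower genes was not tested.

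Penis and limb were compared next, the contrast of the study. Over the gate 842 of 11135 genes were higher in the penis (7.56%) and 773 were lower (6.94%). These became 524 and 450 without the forelimb and 282 and 172 without the filter on low counts. The lower genes included all 6 listed muscle genes, such as Actc1, Myog and Myod1, which had no UMI in the gated penis cells. Myog was at 140 and 25.7 in the gated cells of the forelimb and hindlimb, and at 27.9 and 18.7 in their blood endothelial cells. Keratinocyte genes went the other way, with Krt5, Krt14 and Krt15, the 3 tested of 6 listed, higher in the penis gate. Krt5 was at 21.9, 12.7 and 35.5 against 2.41 and 0.908. The filter on low counts passes a gene that is high in 1 tissue alone, and Actc1, Myog, Myod1 and Krt5 passed in that way. The counts of these 2 lists are therefore a description. Of other lists, 3 of 5 cartilage, 3 of 7 fibroblast and 2 of 7 mural genes were lower in the penis gate, and 13 of 19 pan-endothelial and 15 of 28 tested blood vessel genes were higher. The part of RNA from these other cell types in the calls was not tested. Other genes split the gate and the blood endothelium by tissue alike. Agr2, a protein disulfide isomerase, was at 114, 117 and 99.4 in gated cells of the penis and at 0.602 and 0 in those of the limbs, and at 110, 82.1, 96.3, 0.507 and 0.558 in blood endothelial cells. Cp was at 193, 206, 195, 3.01 and 3.63 in gated cells, and Foxc2 at 101, 81, 104, 4.81 and 5.75. The gate held unlike mixtures of cells in the 2 tissues, and the contrast is given below for the 4-gene cells, where 152 of 5256 genes were higher in the penis (2.89%) and 103 were lower (1.96%). Without TMM scaling the counts were 172 and 68, with the median of all genes moving from 0.02 to 0.11. The counts moved with most single libraries, to 35 and 9 without penis 3, which held 23 of the 47 penis cells, to 41 and 39 without the hindlimb, to 71 and 42 without the forelimb and to 329 and 234 without penis 1.

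In the 4-gene cells 6 of 14 tested genes of fetal growth and timing were higher in the embryonic limb, and 8 were not called. Igf2bp1, an RNA-binding protein of embryonic tissues, had no UMI in the 47 penis cells and stood at 95.7 and 124 in the forelimb and hindlimb, at least 21.2-fold higher. Hmga2, a chromatin protein of embryonic cells, likewise had no UMI in the penis cells and stood at 73.0 and 94.9, at least 16.2-fold higher. Mest, an imprinted gene, was at 182, 218 and 250 in the penis and at 1177 and 1442 in the limbs, a fall of 2.66 ± 0.22 (edgeR adjusted p = 9.1e-05). Igf2bp2 fell by 3.24 ± 0.51. None of the 15 listed genes was called higher in the penis, and the median log2 difference of those tested was -1.23 beside 0.02 over all genes tested. Igf2bp1 and Hmga2 passed the filter on low counts through the limbs alone. The count and the median of this list are therefore a description.

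Other genes lower in the penis 4-gene cells were Basp1, a growth cone protein, at 20.3, 26.7 and 4.03 against 234 and 261 (a fall of 4.02 ± 0.40), Itgb6, Crmp1, Slc38a1, Nes, Rian and Khdrbs3. Fabp4 had 1 UMI in the penis cells and 99 in the limb cells, and the mitotic cyclin Ccnb1 had 3 and 80. Ccnb1 and Tpx2 were the 2 of 20 tested cell division genes that were called, both lower in the penis, beside 1.96% of all genes tested.

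Among genes higher in the penis 4-gene cells were 2 of 8 tested junction genes, 4 of 11 immune traffic genes, 3 of 14 matrix genes, 4 of 17 collecting vessel and valve genes, 5 of 14 further lymphatic genes and 6 of 16 blood vessel genes, beside 2.89% of all genes tested. Nrp1, Efnb2, Gja4, Col4a1, Col4a2 and Ccl21a each counted in more than 1 of these lists. In other lists 0 of 17 pan-endothelial genes, 0 of 8 Vegfc pathway genes and 1 of 14 lymphatic transcription factors were higher. The filter on low counts passes a gene that is high in 1 tissue alone, so these counts are a description. Outside those lists, Eln, the elastic fibre protein, was at 426, 1069 and 843 in the penis 4-gene cells and at 55.1 and 26.7 in those of the limbs (4.21 ± 0.44, edgeR adjusted p = 0.00021). Aqp1, a water channel, was at 152, 129 and 101 against 0 and 6.68 (4.87 ± 0.55, edgeR adjusted p = 0.0003). Stmn2, a tubulin-binding protein, was at 314, 138 and 327 against 17.8 and 4.01. The tetraspanin Cd9 (2.69 ± 0.29), the connexin Gja4 (3.22 ± 0.43) and the ephrin Efnb2 (1.88 ± 0.37) were higher as well. None of these genes overlapped between the tissues, but the rule that named Eln, Aqp1 and Stmn2 required this of them. The 7 fibroblast markers summed to 487, 4124 and 3666 in the penis 4-gene cells and to 1112 and 621 in those of the limbs, with a median log2 difference of 1.45 over the 5 tested and none called. Eln was lowest in penis 1, where the fibroblast sum was lowest too, while Aqp1 was highest there. The part of fibroblast RNA in these genes was not tested.

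The class I genes H2-K1 and H2-D1 were higher in the penis by 2.87 ± 0.39 and 2.28 ± 0.28. Ccl21a was higher by 1.23 ± 0.15 (edgeR adjusted p = 0.00045), Fgl2 by 2.69 ± 0.26, Il7 by 2.38 ± 0.38 and Cp by 4.07 ± 0.54. Lyve1 had a difference of 0.32 ± 0.24, Pdpn of 0.52 ± 0.31, Nrp2 of -0.20 ± 0.20 and Stab1 of -0.32 ± 0.22, none of them called. Sbspon, Gucy1a1, Bmx, H2-T23 and Chrm3 had 1 to 3 UMIs in the limb cells and 23 to 63 in the penis cells. The call of Mfap5, a microfibril protein, was made over uneven penis values of 10.1, 183 and 242, and the part of fibroblast RNA in it was not tested.

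**Figure D4:**
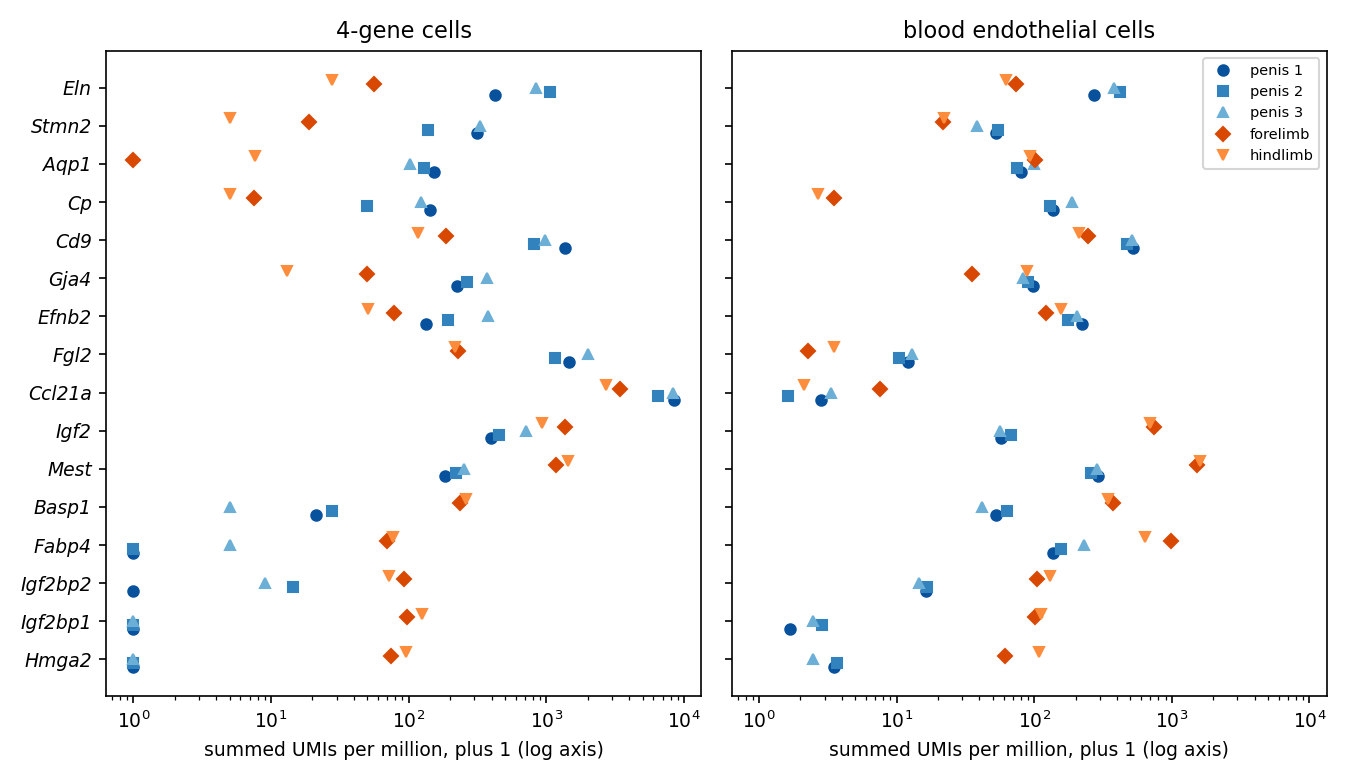
CPM plus 1 (x axis, log scale) of 16 genes (y axis) in 4-gene cells (left) and blood endothelial cells (right), with 1 point a library. The penis (blue) and limb (orange) points lay apart for each gene in the 4-gene cells, which the naming rule required of the genes it picked. Those of Aqp1, Gja4 and Ccl21a overlapped in the blood endothelial cells.

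Whether the penis and limb difference was unequal in the 2 classes was tested by the interaction of class and tissue. Over the gate 4 of 14384 genes had a higher penis to limb ratio than in blood endothelial cells (0.0278%) and 11 had a lower one (0.0765%), and DESeq2 gave 5 and 11. With edgeR no gene was called in either direction without penis 2 (1220 at an unadjusted p under 0.05) or with the penis filter limits for all libraries (1249). Over the 4-gene cells 87 of 13070 genes had a higher ratio (0.666%) and 69 a lower one (0.528%), or 112 and 50 without TMM scaling, with the median of all genes moving from -0.08 to 0.07. DESeq2 gave 47 and 27, and edgeR gave 43 and 36 without penis 3. Aqp1 was in the first set, since blood endothelial cells had 73.5 to 98.9 in the penis and 100 and 92.9 in the limbs (interaction 5.09 ± 0.56, edgeR adjusted p = 3.7e-06). Foxp2, a forkhead factor, was at 152, 125 and 254 in penis 4-gene cells and 60.0 and 78.9 in those of the limbs, whereas blood endothelial cells ran from 5.47 to 9.85 in the penis and were at 126 and 143 in the limbs (5.26 ± 0.35).

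The imprinted neighbours H19 and Igf2 were among these genes. H19 was at 882, 806, 1520, 1927 and 1906 in 4-gene cells and at 56.8, 66.8, 52.8, 894 and 1111 in blood endothelial cells (interaction 3.02 ± 0.28, edgeR adjusted p = 2.9e-07). Igf2 was at 395, 454, 706, 1372 and 934 against 56.5, 66.6, 55.2, 739 and 688 (2.27 ± 0.27). Within the penis both genes were higher in the 4-gene cells by 4.05 ± 0.20 and 3.03 ± 0.19 on the log2 scale, and within the limbs by 1.03 ± 0.20 and 0.76 ± 0.19. Other genes of the list did not do so, and Dlk1, Meg3, Peg3, Plagl1 and Grb10 were lower in 4-gene cells than in blood endothelial cells over the 5 libraries, as was Igf2r, the receptor that clears Igf2. Within the penis alone Grb10 was the one called lower (a fall of 1.40 ± 0.18), and within the limbs the other 5 were, with Grb10 at -0.98 ± 0.19, under the 2-fold limit.

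Of 15 further lymphatic genes, all tested, 5 had a larger penis to limb ratio in the 4-gene cells than in blood endothelial cells. These were Ccl21a (2.38 ± 0.44), Pdpn (2.48 ± 0.43), Dtx1 (4.14 ± 0.74), Maf and Fxyd6. Another 3 had a smaller ratio, Nts (a difference of -3.84 ± 0.59), Stab1 (-1.42 ± 0.23) and Klhl4 (-1.15 ± 0.24). Over all genes tested these shares were 0.666 and 0.528%. In other lists the genes with a larger ratio included Mrc1 (3.59 ± 0.51), Gja4, Fn1, Sema3a and Sema5a. Those with a smaller ratio included Nr2f2 (-1.06 ± 0.22), Angpt2 (-2.07 ± 0.37), Itga9 (-1.72 ± 0.23), Ptpn14, Rasip1 and Tnfrsf11a. For Nr2f2 this came from blood endothelial cells, at 275, 270 and 332 in the penis and 117 and 132 in the limbs, since the 4-gene cells were at 430 to 605 in both. For Pdpn and Mrc1 too the tissues differed in blood endothelial cells, Pdpn at 2.74 to 8.81 in the penis and 23.3 and 26.5 in the limbs, and Mrc1 at 1.05 to 2.05 and 17.5 and 37.1. In 4-gene cells Pdpn and Mrc1 overlapped between the tissues. Fibroblast genes moved too, with Col1a1 (2.31 ± 0.41), Col1a2 (2.65 ± 0.46) and Prrx1 (2.15 ± 0.44) called, and their part in the other calls was not tested.

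Few genes told the 2-gene cells of the penis from blood endothelium. Of the blood endothelial cells in penis 1, 2 and 3, 232 of 423, 221 of 456 and 171 of 342 held 1 lymphatic gene. The 2-gene cells were not compared with blood endothelial cells that held none. In the penis libraries alone, 1 of 13915 genes was higher than in blood endothelial cells (0.00719%) and 8 were lower (0.0575%). The higher gene was Sostdc1, a secreted antagonist of BMP and Wnt signals, by 2.84 ± 0.37, and the lower genes included Syt15, Fabp4, Rgs5, Ly6c1, Rflnb, Prnd and Slc6a6. They were named because so few were called. Flt1 stood at 1048, 1009 and 1093 in these cells and at 1043, 897 and 1073 in blood endothelial cells, and Cldn5 had a difference of 0.07 ± 0.10. Ccl21a stood at 1.00, 0 and 1.02.

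The 2-gene cells of the limbs differed more from blood endothelium. Of the same genes 125 were higher (0.898%) and 93 were lower (0.668%). All 6 muscle markers were higher, with Ttn, the sarcomere protein titin, at 895 and 67.4 against 39.3 and 13.4 (3.79 ± 0.34) and Myod1 at 37.0 and 14.9 against 4.06 and 4.19. The mural gene Tagln was higher as well, by 2.32 ± 0.47. Of 19 tested genes of the pan-endothelial list 10 were lower and 9 were not called, and of 29 tested blood vessel genes 12 were lower, with Sox18 at 32.7 and 43.4 against 105 and 95.7. Over both tissues the 3 called genes were Zfp536 (2.01 ± 0.22), Prnd and Ly6c1.

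Most penis 2-gene cells held Prox1, and its level is described here in cells chosen without it. Endothelial cells with 3 or more of the 6 endothelial genes and no UMI of Mmrn1 or Reln numbered 477, 497 and 387 in the penis and 367 and 308 in the limbs. This class was formed after the pairs of genes in the gate were seen, so the levels of Prox1 and Flt4 in it are a description, with no test. Prox1 had a UMI in 40.0, 37.4 and 45.0% of these cells in the penis and in 9.26 and 11% in the limbs. At 2000 UMIs a cell the shares were 15.5, 13.2 and 16.4% against 2.63 and 3.06%. In cells with no endothelial gene, given for comparison, Prox1 was found in 3.14 to 3.55% of penis cells and in 6.10 and 5.54% of limb cells. At 2000 UMIs these shares were 0.774 to 0.945% in the penis and 2.83 and 2.16% in the limbs. The limb endothelial share lay near that of these other limb cells, and the penis share lay above that of the other penis cells. Whether the other cells made Prox1 of their own was not tested, so they set no floor.

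Prox1 stood at 96.8, 84.4 and 98.5 CPM in these penis cells and at 13.5 and 14.3 in the limb cells, a log2 difference of 2.76 ± 0.13. Over all endothelial cells, gated ones included, Prox1 was at 125, 125 and 173 in the penis and 86.9 and 102 in the limbs (a log2 difference of 0.58 ± 0.13), and Flt4 at 55.0, 49.7 and 58.4 against 76.6 and 114 (-0.80 ± 0.14). Over the class without Mmrn1 and Reln 1040 of 13873 genes were higher in the penis (7.5%) and 1148 were lower (8.28%). Foxc2 stood at 72.2, 63.2 and 81.3 against 3.17 and 1.46 (4.93 ± 0.23, edgeR adjusted p = 3.3e-09). Cp was higher by 6.57 ± 0.24 and Nr2f2 by 1.24 ± 0.11. Flt4, which the class did not use either, was at 43.1, 34.4 and 31.6 against 43.6 and 54.7. Ccl21a was at 0.568 to 2.22 in the penis and 6.87 and 0.585 in the limbs, in a class that by its definition holds no 4-gene cells. Over all endothelial cells Ccl21a was at 203, 271 and 491 in the penis and 381 and 396 in the limbs.

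The share of gated cells depended on depth and on the gate. Gated cells made up 18.2% (95% exact binomial interval 15.0 to 21.8), 17.4% (14.3 to 20.8) and 23.1% (19.3 to 27.3) of endothelial cells in the penis and 31.6% (27.8 to 35.6) and 33.9% (29.7 to 38.3) in the forelimb and hindlimb. The penis libraries lay below both limb libraries (exact permutation test, two-sided, p = 0.1, the smallest that 3 against 2 allows, adjusted p = 0.178 over 16 tests). At 2000 UMIs a cell the shares were 3.97, 4.66 and 7.44% against 11.5 and 11.7%, and the difference of the means went from -13.2 to -6.24 points. Of all kept cells they made up 1.38, 1.35 and 1.80% in the penis and 0.704 and 0.685% in the limbs. The 2 classes entered the endothelial total by unlike rules, since gated cells needed only Pecam1 or Cdh5. Gated cells with 3 or more of the 6 endothelial genes numbered 89 of 94, 87 of 96 and 92 of 103 in the penis. In the limbs they numbered 93 of 182 and 90 of 164. Of all cells with 3 or more of these genes they were 89 of 513, 87 of 543, 92 of 434, 93 of 487 and 90 of 410. By that rule penis 3 lay above the forelimb, and no test was made. The 4-gene cells alone made up 1.35, 3.08 and 5.17% of endothelial cells in the penis and 6.77 and 7.02% in the limbs, with every penis library below both limb libraries (exact permutation p = 0.2). At 2000 UMIs a cell these became 0.484, 1.245 and 2.720% against 2.719 and 3.042% (exact permutation p = 0.3), and penis 3 no longer lay below the forelimb. The difference of the means went from -3.70 to -1.40 points. Of kept cells the 4-gene cells made up 0.103, 0.239 and 0.402% against 0.151 and 0.142% (exact permutation p = 0.6), and here the tissues overlapped. With 3 against 2 libraries none of these tests could go below 0.1. A gate on UMIs takes deeper cells more readily.

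Cycling cells were counted as those with a UMI of 2 or more of Mki67, Top2a, Cdk1 and Birc5, genes of late cell cycle phases. Of gated cells 21.3, 16.7 and 15.5% were cycling in the penis and 60.4 and 65.9% in the limbs (exact permutation p = 0.1, adjusted p = 0.178). At 2000 UMIs a cell these became 14.7, 7.87 and 6.5% against 27 and 28.2%, and the difference of the means went from -45.3 to -17.9 points. In 4-gene cells the shares were 3 of 7, 2 of 17 and 4 of 23 in the penis and 23 of 39 and 24 of 34 in the limbs (exact permutation p = 0.2). At 2000 UMIs a cell these became 31.4, 3.53 and 6.09% against 28.2 and 28.8% (exact permutation p = 0.4), with penis 1 above the limbs on 7 cells. Blood endothelial cells had 18.7, 17.1 and 17.0% against 47.2 and 50.0%, and at 2000 UMIs 9.55, 8.65 and 7.74% against 25.6 and 25.4%.

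**Figure D5:**
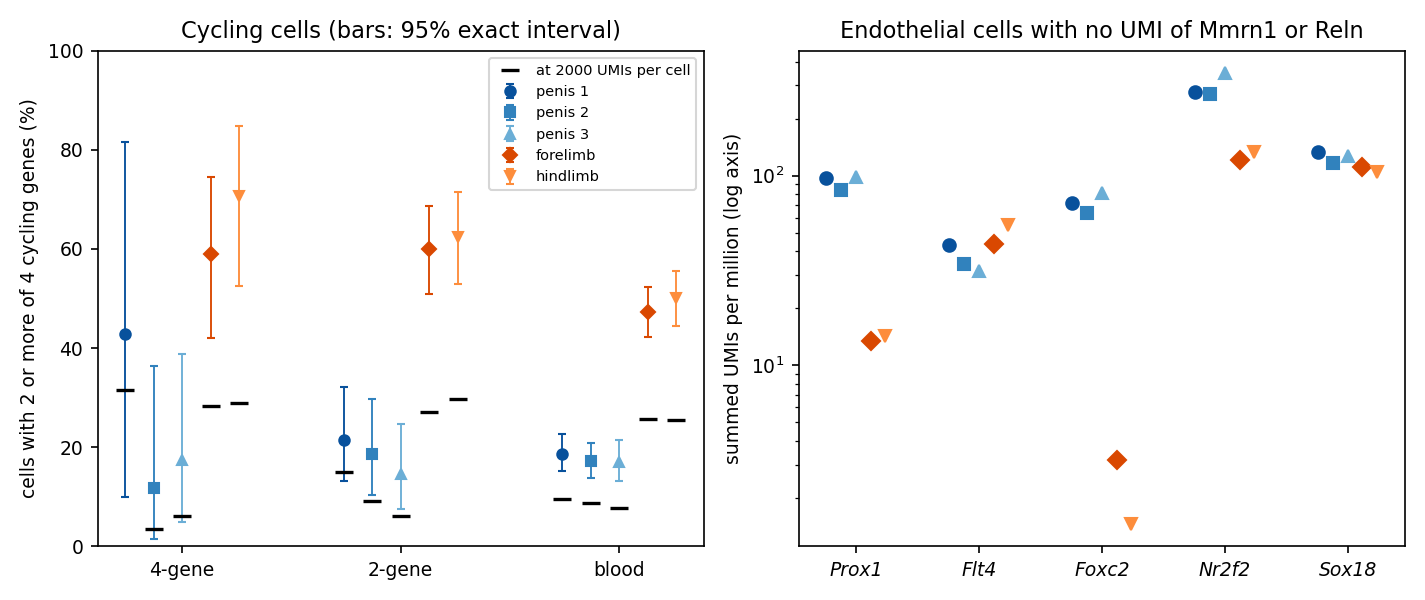
Left, share of cycling cells (y axis, percent) in 4-gene, 2-gene and blood endothelial cells of each library, with 95% exact binomial intervals as bars and black dashes for the share at 2000 UMIs a cell. Right, CPM (y axis, log scale) of 5 transcription and receptor genes in endothelial cells with no UMI of Mmrn1 or Reln, where Prox1 and Foxc2 were higher in each penis library than in either limb library and Flt4 was not.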

How the data were processed

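The single-cell libraries were 3 of the penis at postnatal day 6 and 1 each of the forelimb and the hindlimb at embryonic day 15. The labels do not give the number of limbs in a library. The libraries were analysed from the matrices the authors deposited, which hold raw UMI counts per gene and barcode made with Cell Ranger 7.0.0 against mm10. Whether introns were counted is not given in the sources used here. Cells were kept with 500 to 6000 genes and at most 5% mitochondrial UMIs in the penis, and with 100 to 9000 genes and at most 10% in the limbs. Doublets were not called. The members, lists and the division by gene number were chosen with earlier results of these data known.

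Counts were summed per library and class and tested with edgeR 4.0.16 (quasi-likelihood, TMM, filterByExpr, library as a block where 2 classes were compared) in R 4.3.3, with Benjamini-Hochberg adjustment over all genes tested and the 10 gate genes left out. DESeq2 1.42.0 was an alternative. The fits that use 4-gene and 2-gene cells, and endothelial cells with no Mmrn1 or Reln, were added after seeing the data. SE is the log2 difference divided by the root of the F statistic. Named were the members of the 25 lists and, in each comparison, the 12 called genes with the largest change in each direction. Those 12 had a mean of 20 CPM or more in the higher group. Gm and Rik models, mitochondrial, ribosomal protein and haemoglobin genes were left out. Between tissues the rule also asked for libraries that did not overlap. Against blood endothelial cells it asked for the same direction in all 5 libraries. For the interaction it asked for ratios of the classes that did not overlap between tissues. Some genes that this rule or the lists name are not reported here. For shares at 2000 UMIs, cells were thinned to that depth and shallower cells left out (expected shares for single genes, the mean of 10 draws for the gate and cycling). Genes with 0 UMIs in a group were bounded at 3 UMIs over the group, and ratios over 1 to 3 UMIs have 95% exact intervals. Intervals and floors cover counting error only. The fits were tested on simulated data: of 100 genes changed 4-fold, 88 were called for 4-gene against blood endothelial cells, 78 for penis against limb 4-gene cells and 34 for the interaction of the 2, and of 100 changed 2-fold, 36, 21 and 5. For the whole gate these were 97, 87 and 66, and 42, 30 and 9. The simulation gave all genes the same dispersion, the spread between libraries beyond counting error. This lay under the common dispersion estimated for 4-gene against blood endothelial cells (0.0383) and for penis against limb 4-gene cells (0.0348). The numbers called in those 2 comparisons may thus be too high.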

Additional observations from a re-analysis of the deposited data

Results flagged for a closer look

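The difference between penis and limb was unequal in the gated and the blood endothelial cells, by the test of the interaction with edgeR, for 15 named genes. The log2 difference of the 2 contrasts was 2.11 for Foxp2, 1.53 for Fam167b, 1.20 for Sox7 and 1.06 for Cd93, whose penis to limb ratio was larger in the gate than in blood endothelial cells. It was -3.42 for Rgs5, -2.61 for Des, -2.51 for Twist2, -2.48 for Cdh6, -2.07 for Lrrc7, -1.95 for Robo2, -1.69 for Gpm6a, -1.47 for Slit2, -1.37 for Prkg1, -1.28 for Arhgap6 and -1.18 for Plxna4. Rgs5, a mural gene, was at 2.52, 19.9, 17.7, 104 and 31.8 CPM in gated cells of penis 1, 2 and 3, forelimb and hindlimb, and 24 and 17 of the limb 2-gene cells held mural markers. Without penis 2 or with the penis limits for all libraries edgeR called no gene (1220 and 1249 genes at an unadjusted p under 0.05, and 5 and 11 called by DESeq2 over all libraries), and without penis 1 it called 1. With 4 genes Rgs5, Cdh6 and Robo2 turned direction (1.70, 0.55 and 0.55), as did Cd93 with 3 or more genes (-0.13) and Gpm6a with 2 genes only (0.27). The cause of the differences was not tested.

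In the 4-gene cells the same test singled out 24 named genes. The difference of the 2 contrasts was 6.42 for Sbspon, 5.57 for Adgrb3, 5.26 for Foxp2, 5.2 for Cyfip2, 5.11 for Ntm, 5.09 for Aqp1, 4.77 for Kcnma1, 4.28 for Fhdc1, 4.25 for Aspn, 4.14 for Dtx1, 4.07 for Parm1 and 3.86 for Dkk3. It was -5.33 for St8sia1, -4.20 for Rcan2, -3.84 for Nts, -3.79 for Mmp15, -3.79 for Grb14, -3.67 for Olfml2a, -3.44 for Rassf9, -3.36 for Ctsh, -3.35 for Gpm6a, -3.32 for Gria2 and -2.94 for Wdr17. Ppp2r2b had a fitted difference of -10.31, which is no bound because no penis 4-gene cell held a UMI of it, while penis blood endothelial cells were at 65.5 to 70.6 CPM. Several values rested on few UMIs over all 4-gene cells, such as 11 for Ntm, 21 for Kcnma1, 31 for Adgrb3 and 33 for Fhdc1. Ntm had no UMI in the 4-gene cells of penis 3, and Adgrb3 none in those of penis 1. Aspn was at 10.1, 178 and 12.1 CPM in the 4-gene cells of penis 1, 2 and 3.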

How the results depend on the processing

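Counts are given as higher, then lower genes. Against blood endothelial cells the gate gave 60 and 23, with 207 and 103 without the filter, 238 and 241 with 3 or more genes, 28 and 14 with the penis limits for all libraries, 322 and 505 with 4 genes and 1 and 2 with 2 genes only. With each library left out it gave 36 (without penis 2) to 65 and 13 (without penis 3) to 24, with 15 lower genes without the hindlimb. Penis against limb gave 842 and 773, with 282 and 172 without the filter, 250 and 154 with 3 or more genes, 152 and 103 with 4 genes, and 524 and 450 (both without the forelimb) to 797 and 778 with a library left out. The difference of the contrasts gave 4 and 11, with 58 and 123 without the filter, 33 and 23 with 3 or more genes, 13 and 30 without cells holding other-type markers, 0 and 0 with the penis limits, 1 and 3 with blood cells lacking the 4 genes, 87 and 69 with 4 genes and 30 and 21 with 2 genes only. Leaving out a library gave 0 to 12 and 0 to 29: 0 and 1 without penis 1, 0 and 0 without penis 2, 12 and 17 without penis 3, 7 lower without the forelimb and 7 and 29 without the hindlimb. The 0 counts had 1249 genes (penis limits) and 1285 and 1220 (without penis 1 and 2) at an unadjusted p under 0.05.

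For the 4-gene cells against blood, leaving out a library gave 261 to 306 and 324 (without the forelimb) to 534. Penis against limb 4-gene cells gave 152 and 103, with 68 lower by DESeq2 and 68 without TMM. A library left out gave 329 and 234 (without penis 1), 35 and 9 (without penis 3), 71 and 42 (without the forelimb) or 41 and 39 (without the hindlimb). Their difference of contrasts, 87 and 69, became 47 and 27 by DESeq2, and 43 and 36 (without penis 3) to 113 and 84 with a library left out.

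The gated share of endothelial cells, penis minus limb, was -13.2 points, and -6.24 thinned, -7.85 with 3 or more genes, -16.8 with the penis limits, -7.96 without other-type cells, -3.70 with 4 genes and -15.0 to -12.0 with a library left out. The cycling share was -45.3 points, and -17.9 thinned, -50.8, -36.2, -40.8 and -40.8 in the same order, and -48.0 to -42.6 with a library left out. Directions turned for Lyve1 (-0.23, 2 genes only), Cd93 (-0.13, 3 or more genes), Rgs5, Cdh6 and Robo2 (1.70, 0.55 and 0.55, 4 genes) and Gpm6a (0.27, 2 genes only). The cause of these shifts was not tested. No paired analysis was possible because the labels number only the penis libraries, and the forelimb and hindlimb are 1 library each, so penis and limb share fewer than 2 replicate numbers.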

Other observations

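Cells that held both Ccl21a and Lyve1 were counted without the gate. They numbered 13, 18, 18, 48 and 35 in penis 1, 2 and 3, forelimb and hindlimb, and 9, 16, 17, 42 and 35 of them lay inside the gate. Of those inside, 6, 16, 17, 38 and 30 held all 4 gate genes. Of the cells outside, 2, 1, 0, 3 and 0 held Pecam1 or Cdh5.

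Hoxd9, a regional identity gene, was higher in 4-gene cells than in blood endothelial cells in 5 of 5 libraries, at 132, 71.3, 113, 79.5 and 62.8 CPM against 43.1, 37.7, 44.0, 14.7 and 18.7 (log2 difference 1.64 ± 0.23, edgeR adjusted p = 0.00036). Lmo2, a cofactor of blood and endothelial development, was higher by 1.12 ± 0.13. Apoe was lower, at 132, 205, 169, 11.4 and 9.36 against 532, 459, 394, 141 and 195.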
